A study of Mus musculus with 3 samples.

Results

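Collagens, laminins and integrin subunits were followed through the cell classes of the newborn mouse cortex and 3 genotypes. All gene symbols of the form Col, number, a, number, or of the form Lama, Lamb or Lamc with a number were taken. So were symbols beginning with Itga or Itgb followed by a number or by v, l, m, x or e. A symbol such as Itgad falls outside this rule. The rule found 86 of the 27998 genes in the files: 44 collagen, 11 laminin and 31 integrin entries. The 86 entries have 85 symbols, since Itgam is listed under 2 gene identifiers, and 4 of the integrin entries (Itgb1bp1, Itgb1bp2, Itgb3bp and Itgbl1) are binding partners or relatives, not subunits. A UMI, a count of 1 captured RNA molecule, was seen for 85 of the 86, and Itgb2l had none.

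Cells came from the dorsal cortex of pups at postnatal day 2, in 1 library for each genotype, so no difference between genotypes has a replicate and no p-value is given. The control is labelled WT in one field, while the protocol describes its mice as carrying floxed Map2k1 and Map2k2, the genes of the ERK kinases MEK1 and MEK2. Both mutants, one with Emx1-Cre and one with hGFAP-Cre, are labelled double conditional knockouts of Map2k1 and Map2k2. In background terms, Emx1 drives Cre in cortical progenitors and their progeny, the human GFAP promoter drives it in radial glia and their progeny, and neither is known for driving it in vessels or microglia. FlashTag, a dye that labels cells lining the ventricle, was given at embryonic day 18 to all 3 genotypes, and tdTomato-positive cells were sorted. The allele that carries tdTomato is not named in the labels, and neither the sex nor the number of pups per library is given.

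Collagens are trimers of alpha chains: types I and III build fibrils, and type IV builds the sheet of the basement membrane. Laminins are trimers of an alpha, a beta and a gamma chain, and polymerise beside type IV collagen. Integrins are pairs of an alpha and a beta subunit that bind these proteins at the cell surface. In brain, basement membranes wrap the vessels and cover the surface, with endothelial cells and pericytes on one side and the end-feet of astrocytes on the other.

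The chains of type IV collagen lie in head-to-head pairs, and Col4a1 and Col4a2 are the chains on which most of the vascular results turn. In the GENCODE M21 annotation of GRCm38, Col4a1 runs on the minus strand of chromosome 8 from 11198423 to 11312826 and Col4a2 on the plus strand from 11312805 to 11449287. Their first ends therefore share 22 bases, shown in capitals within the plus strand of chr8:11312801-11312830 (RefSeq promoter table, GRCm38.p6). The 250 bases before the RefSeq starts of Col1a2 (chr6:4505368-4505617, plus strand) and Col3a1 (chr1:45311288-45311537, plus strand) are also shown. Over the whole mural-like class, described below, these fibrillar chains took another course between genotypes than Col1a1. Among cells called mural by their own markers, the intervals of Col1a2 and Col3a1 overlapped in the 3 libraries. Col1a1 has no entry in the promoter table, so its bases cannot be set beside these. Capitals mark 3 motifs, searched on either strand: TATAAA (the TATA box), the CCAAT box and the GC box GGGCGG. The GENCODE annotation opens Col1a2 further upstream, at 4504814.
Col4a1 and Col4a2 shared start: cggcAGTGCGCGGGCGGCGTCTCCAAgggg
Col1a2: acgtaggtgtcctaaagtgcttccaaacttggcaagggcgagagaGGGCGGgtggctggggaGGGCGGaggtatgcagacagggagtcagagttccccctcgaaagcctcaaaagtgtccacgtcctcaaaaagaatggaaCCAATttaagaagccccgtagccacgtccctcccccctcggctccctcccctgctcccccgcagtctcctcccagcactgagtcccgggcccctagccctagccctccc
Col3a1: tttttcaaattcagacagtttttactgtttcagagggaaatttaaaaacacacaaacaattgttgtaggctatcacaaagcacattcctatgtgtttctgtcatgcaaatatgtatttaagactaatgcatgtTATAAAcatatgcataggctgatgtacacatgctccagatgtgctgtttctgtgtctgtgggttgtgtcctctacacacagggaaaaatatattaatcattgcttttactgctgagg

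Col1a2 held 2 GGGCGG and 1 CCAAT, and Col3a1 held 1 TATAAA. Among the 250 bases before all 32851 starts of the table, 12.4% held TATAAA, 33.8% CCAAT and 32.7% GGGCGG. These matches describe the letters only. An entry of the table was found for 62 of the 85 member symbols.

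The files held 11886 control, 13214 Emx1-Cre and 13139 hGFAP-Cre barcodes, of which 9513, 12196 and 12063 cells were kept. The median kept cell had 6427, 4988 and 5318 UMIs, and the shallowest barcode had 500, 2644 and 3065 UMIs. Between 90 and 101 barcodes of each library also occurred in another one. Map2k1 stood at 16.7, 13.9 and 16.2 CPM (the usual unit of counts scaled to sequencing depth) and Map2k2 at 196, 217 and 214 CPM in control, Emx1-Cre and hGFAP-Cre cells. The labels name no deleted exon, and reads from the 3′ end outside a deleted part check nothing. Xist stood at 1460 CPM in the control and at 0.163 and 0.948 CPM in the mutants, and the Y-linked Ddx3y at 0, 37.1 and 45.5 CPM, so the genotypes also differ in sex. Sex, genotype and library cannot be told apart here.

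Cells were clustered without the members, so that no collagen, laminin or integrin gene placed a cell. Of 30 clusters, 26 were named from marker lists, and 10 classes had at least 30 cells in every library. The vascular classes were small: mural-like cells, which carried pericyte markers such as Vtn, Kcnj8 and Abcc9, numbered 36, 193 and 83 in control, Emx1-Cre and hGFAP-Cre mice. Endothelial-like cells numbered 96, 42 and 51, and microglia-like cells 241, 82 and 220. All 10 defining endothelial markers were seen in the endothelial-like cells of each library, as were all 10 mural markers in the mural-like cells and all 10 microglial markers in the microglia-like cells. The clusters were named from these markers, so this is no separate check of identity. Control astroglia-like cells, summed, also had UMIs of all 10 endothelial and all 10 mural markers. A class name rests on RNA alone and is therefore given as "-like".

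A level in CPM is the UMIs of a gene over all UMIs of a class in a library, scaled as above, with an exact Poisson 95% interval in brackets. Intervals cover counting error only. These are 3′ UMI counts, which are not divided by transcript length. A member counted as measured in a class with a mean of at least 10 CPM over the libraries and at least 20 UMIs in all. By this filter 55 members were measured in their highest class (29 collagens, 8 laminins and 18 integrin entries), and 31 were not, among them Col2a1, Col4a3, Col4a6, Lama3, Itga7 and Itgb3.

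Most measured members were highest around vessels. Of the 55, 33 had their highest mean level in a vascular class, where 20.5% of the 12473 genes measured the same way did. Another 14 were highest in a glial class (34.8% of all genes), 7 in microglia-like cells (10.4%) and 1 in a neuronal class (34.3%). Mural-like cells alone took 31: 17 of 29 measured collagens, 7 of 8 laminins and 7 of 18 integrin entries. Of all genes, at most the 20.5% of the vascular classes can be highest in mural-like cells. For 38 of the 55 the same class was highest in each of the 3 libraries, a share that was not taken over all genes. The 7 highest in microglia-like cells were all integrin subunits.

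**Figure D1:**
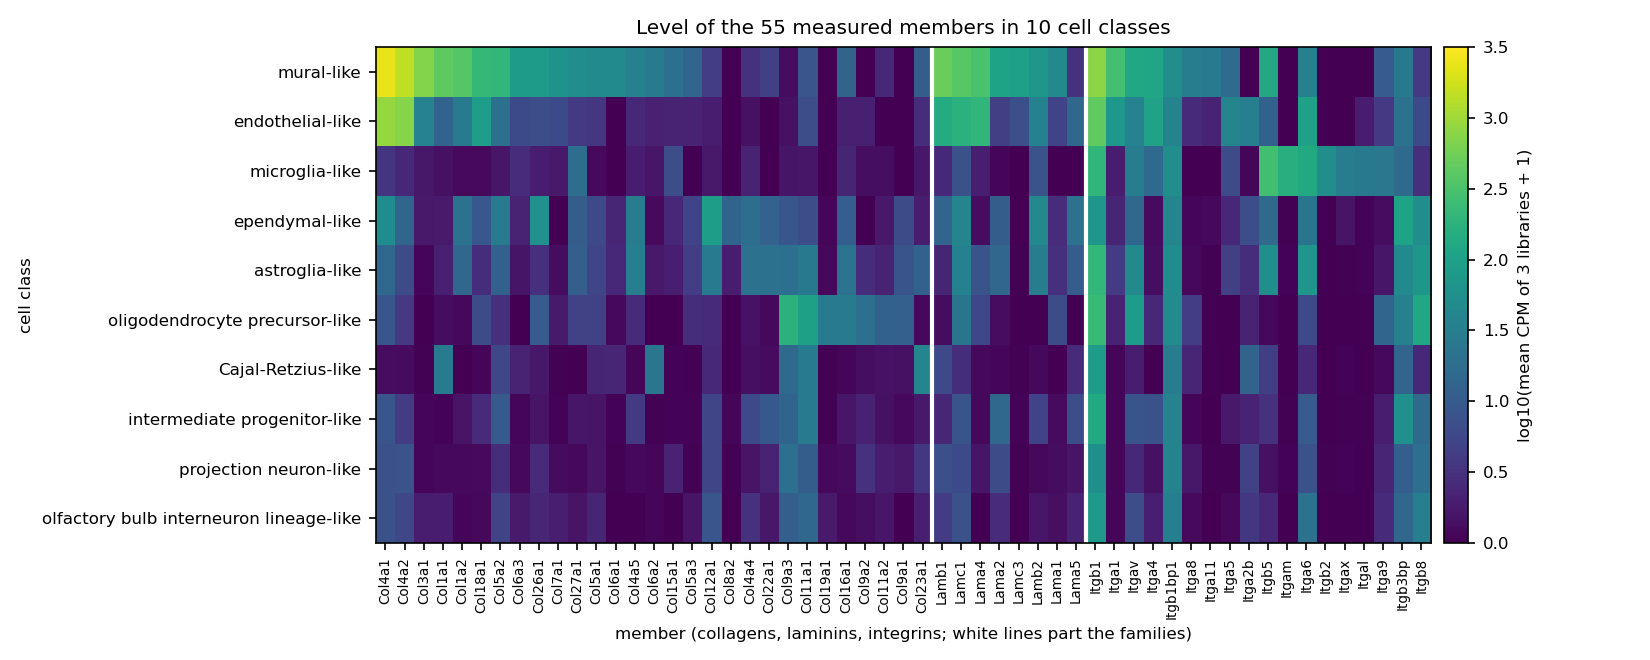
Mean level over the 3 libraries, as log10(CPM + 1), of the 55 measured members (columns, by family and highest class) in 10 cell classes (rows). The mural-like row is the brightest for Col4a1, with a mean of 2432 CPM, and oligodendrocyte precursor-like cells stand out for Col9a3 and microglia-like cells for Itgam.

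Summed over a family, the levels set the classes apart. In mural-like cells all collagen entries together made 8587 [8211 to 8976] CPM in control, 5687 [5542 to 5835] in Emx1-Cre and 4809 [4589 to 5037] in hGFAP-Cre cells. Endothelial-like cells followed with 2323, 1409 and 1746 CPM. In projection neuron-like cells the sum was 79.1, 51.8 and 58.3 CPM. Astroglia-like cells lay between, with 236, 229 and 341 CPM. Laminins summed to 2116, 1027 and 1412 CPM in mural-like against 78.7, 77.3 and 130 CPM in astroglia-like cells. The sums of the integrin subunits, without the 4 binding partners or relatives, were 1928, 1238 and 1469 CPM in mural-like, 1248, 698 and 914 CPM in microglia-like and 91.2, 81.6 and 100.3 CPM in projection neuron-like cells.

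The common chains of type IV collagen were lower in mural-like cells of the mutant libraries. Col4a1 stood at 3772 [3524 to 4033] CPM in control mural-like cells, at 1754 [1674 to 1837] in Emx1-Cre and at 1769 [1637 to 1910] in hGFAP-Cre ones. Its partner Col4a2 stood at 2414 [2217 to 2624], 981 [921 to 1043] and 1026 [925 to 1134] CPM. Both chains were thus highest in the control, with intervals apart from either mutant, and the mutants' intervals overlapped each other. The log2 ratios over control, taken with 5 CPM added to each level, were -1.10 and -1.09 for Col4a1 and -1.30 and -1.23 for Col4a2. Over the 10 classes the mean levels of the 2 chains, on a log2 scale, had a Pearson r of 0.98. This describes classes of the same libraries, and how far it rests on the vascular ones was not tested.

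In endothelial-like cells the same chains were lower than in mural-like cells of the same library. Col4a1 stood at 1093 [1041 to 1147], 678 [591 to 774] and 843 [756 to 938] CPM. Col4a2 stood at 1012 [962 to 1064], 550 [472 to 637] and 622 [547 to 704] CPM. The control was again the highest library, by log2 ratios of -0.68 and -0.37 for Col4a1 and -0.87 and -0.70 for Col4a2, of which the -0.37 lies short of 1.5-fold. Centred on the median gene, the Emx1-Cre ratio of Col4a1 was -0.56 and also short of it. A relative level cannot tell less of this RNA from more of other RNA in a cell.

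Most laminin chains of mural-like cells were also lower in the mutants. Lamb1, the beta 1 chain, stood at 697 [593 to 814] CPM in control, 345 [310 to 383] in Emx1-Cre and 448 [383 to 522] in hGFAP-Cre cells. Lama4, the alpha 4 chain known from vessel walls, stood at 486 [400 to 586], 165 [141 to 191] and 295 [243 to 356] CPM. Lamc1, the gamma 1 chain most laminins share, stood at 456 [372 to 552], 283 [251 to 318] and 430 [366 to 502] CPM. Lamb1 and Lama4 thus lay below the control in each mutant, with intervals apart. Lamc1 did so in the Emx1-Cre library only, while its hGFAP-Cre interval overlapped the control's. The share of all genes with intervals apart was not taken.

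The beta 2 and gamma 3 chains differed more. Lamb2 stood at 131 [88.7 to 188], 28.4 [19 to 40.8] and 53.7 [32.8 to 82.9] CPM. Lamc3 stood at 171 [121 to 234], 70.5 [55.2 to 88.8] and 37.6 [20.6 to 63.1] CPM. Lama2, at 153, 70.5 and 91.3 CPM, was likewise highest in the control, though its hGFAP-Cre interval [63.2 to 128] overlapped the control's [107 to 213]. Lama1 was the exception, with 13.1 [2.71 to 38.4] CPM from 3 UMIs in control, 61.7 [47.4 to 79.0] in Emx1-Cre and 56.4 [34.9 to 86.2] in hGFAP-Cre cells. In all, 6 of 7 measured laminins were at least 1.5-fold lower with Emx1-Cre, where 33.3% of all measured genes were lower, and 5 of 7 with hGFAP-Cre, where 26.9% were. Lama1 was higher in each (15.2% and 17.2% of all genes), with its hGFAP-Cre interval overlapping the control's.

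Among integrins of mural-like cells the alpha subunit Itga1 differed most plainly. Itga1, which pairs with Itgb1 into a collagen and laminin receptor, stood at 486 [400 to 586], 167 [142 to 194] and 188 [147 to 237] CPM in mural-like cells. Itgb1, the beta subunit shared by many pairs, stood at 850 [735 to 978], 682 [632 to 735] and 776 [689 to 871] CPM, with each mutant's interval overlapping the control's. The log2 ratios were -1.52 and -1.35 for Itga1, and -0.32 and -0.13 for Itgb1.

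Fibrillar collagens in mural-like cells differed in direction. Col1a1 stood at 784 [674 to 908] CPM in control, 370 [334 to 410] in Emx1-Cre and 121 [88.1 to 162] in hGFAP-Cre cells. Col1a2, which joins Col1a1 in the type I trimer, was higher in the mutants, with its interval apart from the control's in the Emx1-Cre library only, at 272 [208 to 348], 466 [425 to 510] and 384 [324 to 452] CPM. Col3a1, the only chain of type III, stood at 407 [329 to 499], 1009 [949 to 1073] and 685 [603 to 774] CPM. Col1a1 was thus highest in the control and Col3a1 lowest there, and the intervals of each of these genes were apart among the libraries.

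**Figure D2:**
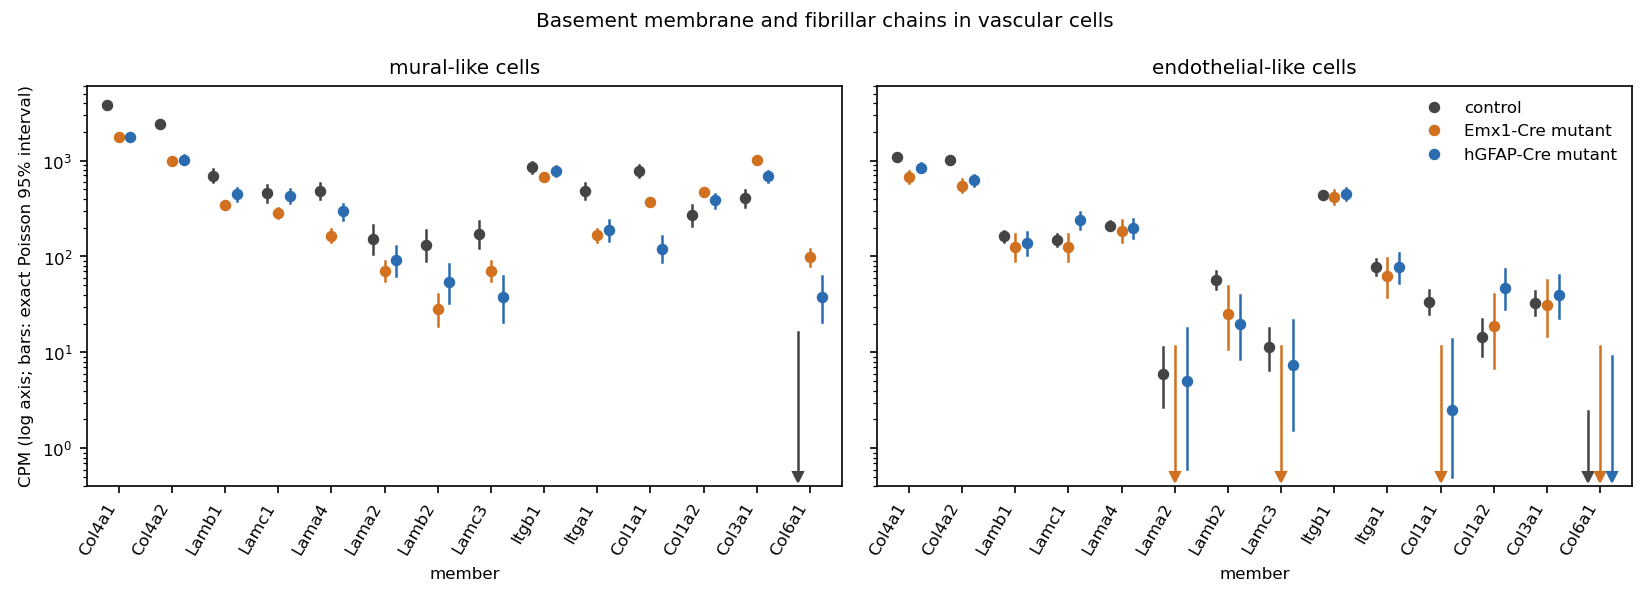
Level (CPM, log axis) of 14 members in mural-like and endothelial-like cells of each library, with exact Poisson 95% intervals, a triangle at the foot marking 0 UMIs. In mural-like cells Col4a1 is at 3772 CPM in the control against 1754 and 1769 CPM in the mutants, while Col3a1 is at 407 against 1009 and 685 CPM.

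The mural-like class held cells with fibroblast markers in unequal numbers. By their own markers 35 control, 157 Emx1-Cre and 76 hGFAP-Cre cells were called mural, and 1, 35 and 7 were called fibroblast. In the 35 fibroblast-called Emx1-Cre cells Col3a1 stood at 2351 [2176 to 2536] CPM, Col1a2 at 1108 [989 to 1238], Col1a1 at 929 [820 to 1048], Col6a1 at 289 [229 to 358] and Lama1 at 165 [122 to 220]. Among mural-called cells alone, Col3a1 stood at 382, 470 and 426 CPM and Col1a2 at 261, 207 and 251 CPM, with overlapping intervals in the 3 libraries.

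For Col1a1 the difference was larger without those cells. In mural-called cells it stood at 792 [679 to 918] CPM in control, 130 [105 to 159] in Emx1-Cre and 24.5 [10.6 to 48.3] in hGFAP-Cre cells, while Col4a1 stood at 3797, 1619 and 1615 CPM and Itga1 at 499, 216 and 205 CPM. Fibroblast markers still differed among mural-called cells, with sums of 1264, 578 and 1088 CPM in control, Emx1-Cre and hGFAP-Cre cells. Their part in the Col1a1 levels was not tested. With every cell of the class thinned to 2000 UMIs, 73.5% [55.6 to 87.1] of 34 control cells had a Col1a1 UMI, against 26.9% [20.8 to 33.8] of 193 Emx1-Cre and 6.02% [1.99 to 13.5] of 83 hGFAP-Cre cells (exact Clopper-Pearson intervals, 2 shallower control cells left out). Unthinned shares were 94.4%, 36.3% and 12%. In control projection neuron-like cells, which should lack the gene, the thinned share was 0.046%.

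Col1a1 was highest in the control outside the mural-like class too. In endothelial-like cells it stood at 33.8 [25.1 to 44.4] CPM in the control, at 0 of 42 Emx1-Cre cells and at 2.49 [0.063 to 13.9] CPM, from 1 UMI, in the hGFAP-Cre library. Against the limit that 0 UMIs allow, 3 counts or 9.37 CPM, the control was at least 3.60-fold higher than the Emx1-Cre library. In Cajal-Retzius-like neurons, the reelin-making cells of the surface layer, Col1a1 stood at 72.8 [61.8 to 85.2], 6.68 [5.10 to 8.60] and 4.38 [2.45 to 7.23] CPM, and Col1a2 had no UMI in any library. Those control cells were also the deepest of their class, with a median of 19205 UMIs against 6097 and 8936, and the part of this in the result was not tested.

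Over the whole class, 10 of 36 measured members were at least 1.5-fold higher and 13 lower in Emx1-Cre mural-like cells, where 15.2% of 7485 measured genes were higher and 33.3% lower (48.6% either way). The hGFAP-Cre library had 7 higher (17.2% of genes) and 13 lower (26.9%), with 44.1% either way. The medians of the members' log2 ratios were -0.267 and -0.185, beside -0.249 and -0.133 over all genes. The 2 comparisons share the control library with its 36 cells.

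Some higher members had no UMI at all in control mural-like cells. Col6a1 had no UMI in control cells and 98.0 [79.7 to 119] and 37.6 [20.6 to 63.1] CPM in the mutants, which is at least 7.45-fold and at least 2.86-fold above the limit of 13.1 CPM that 3 counts set in the control. Col15a1 also had none in the control and 49 [36.4 to 64.6] CPM in the Emx1-Cre library, at least 3.73-fold higher. Without fibroblast-called cells, an alternative chosen after seeing the data, 3 members were higher and 16 lower of 31 measured in the Emx1-Cre library, beside 15% and 31.7% of 6771 genes. In the hGFAP-Cre library 3 were higher and 12 lower, beside 16.7% and 28.6% of genes. In mural-called cells alone Col6a1 stood at 0, 24.6 [14.6 to 39] and 3.06 [0.078 to 17.1] CPM and Lama1 at 4.5, 19.2 and 18.4 CPM, from 1, 14 and 6 UMIs. The X-linked Col4a5, at 13.1 CPM in the control and 55.9 [42.3 to 72.4] in the Emx1-Cre library, then had a log2 ratio of 0.0064 in place of 1.75.

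The mural markers themselves differed in the same direction. All 10 were seen in each library, and their summed level was 22698 CPM in control, 10519 in Emx1-Cre and 15874 in hGFAP-Cre cells. In mural-called cells the sum was 23117, 13934 and 17643 CPM. Fibroblast markers summed to 1327, 1305 and 1351 CPM in the class, with Lum and Aldh1a2 at 0 in the control. The part of this in the lower type IV collagen and laminin levels was not tested. Col27a1, at 101 [63.9 to 151], 23.5 [15.1 to 35] and 29.5 [14.7 to 52.8] CPM, was a further collagen below the control in each mutant.

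In endothelial-like cells members were called in both directions in each mutant. Of 22 measured members 1 was higher and 8 lower in the Emx1-Cre library, where 8.84% of 7950 measured genes were higher and 21.0% lower, 29.8% in all. In the hGFAP-Cre library 5 were higher (12.2% of genes) and 6 lower (15.8%), with 28.0% of genes either way. Itga6, the alpha subunit of laminin receptors, stood at 58.9 [47.3 to 72.5] CPM in the control and was higher in each mutant, at 116 [81.4 to 159] and 124 [92.3 to 164] CPM. Itga5, the fibronectin receptor subunit, stood at 55 [43.8 to 68.1], 18.7 [6.88 to 40.8] and 39.8 [22.7 to 64.6] CPM, and Itga4 at 154 [135 to 175], 100 [68.4 to 141] and 49.7 [30.4 to 76.8] CPM. The interval of Itga5 was apart from the control's in the Emx1-Cre and that of Itga4 in the hGFAP-Cre library. Whether the mutants differ from each other was not tested. Endothelial markers summed to 12062, 12158 and 12403 CPM, while mural markers in these cells summed to 1243, 1397 and 2184 CPM. The 12 astroglial markers summed to 713, 312 and 1681 CPM, with 0, 3 and 0 of them at 0, and the 10 microglial ones to 49, 21.9 and 149 CPM, with 3, 8 and 3 at 0. Their part in the members' levels was not tested.

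Laminin chains of endothelial-like cells showed no common course. Lama4 stood at 209, 184 and 199 CPM and Lamb1 at 163, 125 and 137 CPM, with overlapping intervals. Lamc1 was higher in the hGFAP-Cre library, at 239 [193 to 292] against 149 [130 to 170] CPM, and so was Col18a1, the source of endostatin, at 124 [92.3 to 164] against 74.8 [61.7 to 90] CPM. With each cell weighted equally the log2 ratio of Col18a1 was 0.15 in place of 0.70 and no longer passed 1.5-fold. Lamb2 was lower there, at 19.9 [8.59 to 39.2] against 56.9 [45.6 to 70.3] CPM. These rest on 51 hGFAP-Cre cells, with 8 UMIs in the case of Lamb2.

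Astroglia-like cells numbered 2326, 2063 and 3281. Itgb1 stood at 171 [166 to 176], 234 [227 to 241] and 208 [202 to 214] CPM. Itgb8, which pairs with Itgav to release TGF-beta, stood at 74.8 [71.3 to 78.4], 48.7 [45.4 to 52.1] and 85.8 [82.1 to 89.7] CPM. Col4a1 was far lower than in the vascular classes, at 10.5, 10.7 and 21.8 CPM. Of 22 measured members 4 were higher and 6 lower in the Emx1-Cre library, where 6.87% of 8326 measured genes were higher and 26.6% lower (33.4% either way). In the hGFAP-Cre library 6 were higher (11.2% of genes) and 1 was lower (13.5%), with 24.7% of genes either way. Markers of other classes differed in these cells: the 9 ependymal ones summed to 30.8, 106 and 427 CPM, with Ccdc153 and Tmem212 at 0 in the control, and the 7 of multipotent progenitors to 959, 316 and 177 CPM, none at 0. Their part in the members' levels was not tested.

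For Col4a4, Itgb5 and Itga6 the ratio passed 1.5-fold in the Emx1-Cre library and not in the hGFAP-Cre library, a difference that was not tested. Col4a4, a chain of the type IV network known from kidney, stood at 23.5 [21.6 to 25.6] CPM in control, 4.27 [3.34 to 5.38] in Emx1-Cre and 32.6 [30.3 to 35] in hGFAP-Cre cells. Its head-to-head neighbour Col4a3, 72 bases away, stood at 0.344, 0.119 and 0.787 CPM. Itgb5 stood at 75.7 [72.2 to 79.3], 30.7 [28.1 to 33.4] and 56.2 [53.2 to 59.4] CPM. Itga6 stood at 49.3 [46.5 to 52.2], 105 [101 to 110] and 39.9 [37.4 to 42.6] CPM, with all 3 intervals apart.

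The hGFAP-Cre astroglia-like cells stood out for other chains. Col22a1, a collagen known from tissue junctions, stood at 9.49 [8.28 to 10.8], 8.24 [6.93 to 9.73] and 40.5 [37.9 to 43.2] CPM. Col16a1 stood at 12.7 [11.3 to 14.2], 17.7 [15.8 to 19.9] and 31.7 [29.4 to 34.0] CPM. Lamc1 stood at 24.0 [22 to 26.0], 30.5 [27.9 to 33.2] and 46.1 [43.4 to 49] CPM. Each was highest in the hGFAP-Cre library, with intervals apart from the others.

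Lama2, the alpha 2 chain of laminins, lay below the control in one mutant and above it in the other. It stood at 11.1 [9.77 to 12.5] CPM in control, 2.91 [2.15 to 3.84] in Emx1-Cre and 25.7 [23.7 to 27.9] in hGFAP-Cre cells. The fibril-associated Col12a1 was higher in each mutant, at 35.1 [32.3 to 38.1] and 33.0 [30.7 to 35.4] against 13.7 [12.3 to 15.3] CPM. Col5a2, at 6.44 [5.45 to 7.56], 17.0 [15.1 to 19.1] and 9.66 [8.43 to 11] CPM, and Col23a1, at 7.64 [6.56 to 8.85], 17.3 [15.3 to 19.4] and 8.83 [7.66 to 10.1] CPM, were highest in the Emx1-Cre cells. With 20 CPM added to each level the Emx1-Cre log2 ratios of Col5a2 (0.49), Col23a1 (0.43) and Lama2 (-0.44) and the hGFAP-Cre one of Lama2 (0.56) lay under 1.5-fold.

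**Figure D3:**
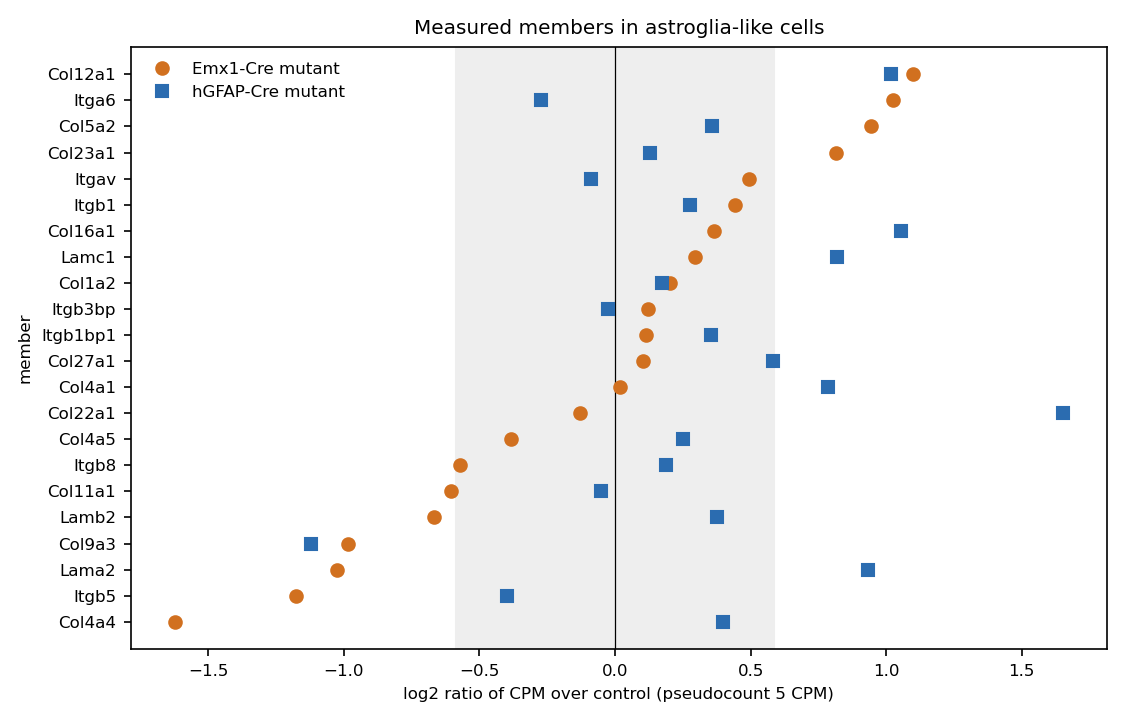
Log2 ratio of CPM over the control for the 22 measured members in astroglia-like cells (circles Emx1-Cre mutant, squares hGFAP-Cre mutant, grey band under 1.5-fold either way). Lama2 lies at -1.02 and 0.93, Col4a4 at -1.62 and 0.40, and Col12a1 near 1 in each mutant.

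Different clusters made up the astroglia-like class in the 3 libraries. The cluster led by Chil1 held 1254 control, 0 Emx1-Cre and 35 hGFAP-Cre cells, the one led by Has2 61, 1257 and 120, and the one led by Prm1 24, 19 and 2415. In the Has2-led cluster Col4a4 stood at 14.6, 3.76 and 3.03 CPM and Itga6 at 70.0, 116 and 111 CPM in control, Emx1-Cre and hGFAP-Cre cells. The control and hGFAP-Cre cells of that cluster held 685335 and 1318897 UMIs in all, so their Col4a4 levels rest on few UMIs. In the Prm1-led cluster Col22a1 stood at 49.2, 50.7 and 47.8 CPM. Its control and Emx1-Cre levels there come from 24 and 19 cells with 183073 and 98552 UMIs in all, and so from few UMIs of Col22a1. With clusters shared by the 2 libraries weighted equally, the hGFAP-Cre log2 ratio of Col22a1 was -0.04 in place of 1.65. The same weighting gave Lama2 log2 ratios of -0.18 and 0.40, and Col12a1 1.48 and 1.02. The hGFAP-Cre ratio of Col12a1 lay between 0.01, at a finer clustering (resolution 2), and 0.57 in 6 settings, among them mitochondrial shares under 5% (0.28) and without the cluster led by H19, Ogn and Acta2 (0.57). That of Col4a1 was 0.79, and between 0.30 and 0.52 in 4 settings, among them at least 2000 genes per cell (0.30) and resolution 2 (0.42).

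Col9a3, a chain of the fibril-associated type IX collagen, was the collagen measured in projection neuron-like as well as glial classes. It was highest in oligodendrocyte precursor-like cells, at 246 [207 to 291] CPM in control, 119 [99.5 to 142] in Emx1-Cre and 169 [150.5 to 189] in hGFAP-Cre cells. Of its partner chains in these cells, Col9a1 stood at 0, 11.1 and 21.2 CPM, and Col9a2 at 28.6, 12 and 14.1 CPM with overlapping intervals. In astroglia-like cells Col9a3 stood at 30.5 [28.3 to 32.8], 12.9 [11.3 to 14.8] and 11.3 [9.95 to 12.7] CPM, highest in the control. With shared clusters weighted equally its astroglial log2 ratios were -0.62 and -0.14, in place of -0.98 and -1.12, so that the hGFAP-Cre one no longer passed 1.5-fold.

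In neuronal classes Col9a3 was likewise highest in the control. Projection neuron-like cells had 29.3 [27.5 to 31.3], 8.43 [7.26 to 9.73] and 16.2 [13.7 to 18.9] CPM, and intermediate progenitor-like cells 23.5 [19.5 to 28.1], 3.98 [2.79 to 5.52] and 10.3 [8.92 to 11.9] CPM. Olfactory bulb interneuron lineage-like cells had 25.7 [20.7 to 31.4], 2.19 [0.0555 to 12.2] and 3.5 [1.60 to 6.64] CPM, the mutant values from 1 and 9 UMIs. Endothelial-like, mural-like and microglia-like cells had at most 3 UMIs of it in a library and at most 1.32 CPM. In these small classes 3 counts make up to 13.1 CPM, which is above some of the mutant neuronal values. With cells thinned to 2000 UMIs, 4.49% [3.89 to 5.15] of control projection neuron-like cells had a Col9a3 UMI, against 1.43% [1.10 to 1.82] and 3.16% [2.29 to 4.23].

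**Figure D4:**
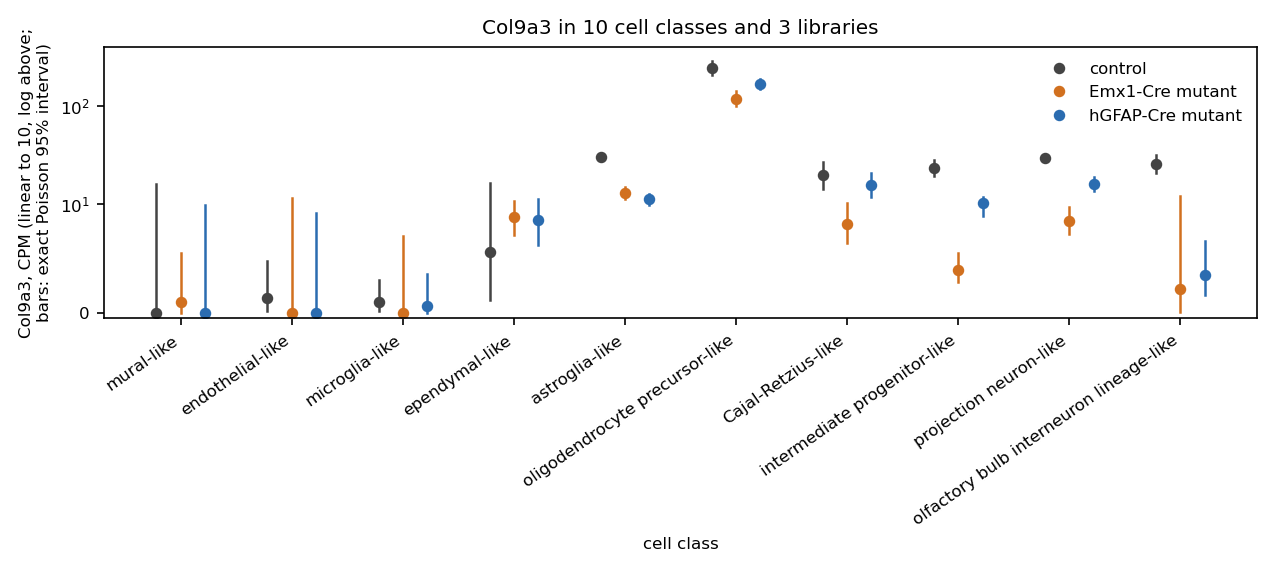
Level of Col9a3 (CPM, linear to 10 and logarithmic above) in 10 cell classes and 3 libraries, with exact Poisson 95% intervals. The control is the highest library in the glial and neuronal classes other than ependymal-like cells, from 246 CPM in oligodendrocyte precursor-like to 19.7 CPM in Cajal-Retzius-like cells, and values in mural-like, endothelial-like and microglia-like cells lie near 0.

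Oligodendrocyte precursor-like cells, of which there were 65, 272 and 252, were the class with the highest level of 8 measured members, 7 of them collagens. The share of all genes highest in this class was not taken. All glial classes together took 14 of the 55 measured members and 34.8% of all genes. Col11a1, a fibril chain, stood at 94.7 [70.9 to 124], 112 [92.8 to 134] and 83.0 [70.4 to 97.2] CPM, with overlapping intervals. Col19a1 stood at 5.36 [1.11 to 15.7] CPM from 3 UMIs in the control and at 53.6 [40.7 to 69.3] and 22.8 [16.4 to 30.8] CPM in the mutants. Itgav stood at 28.6 [16.3 to 46.4], 148 [126 to 173] and 73.8 [61.9 to 87.3] CPM, and its partner Itgb8 at 104 [78.7 to 134], 176 [151 to 202] and 90.6 [77.4 to 105] CPM. Itgav was therefore lowest in the control, and Itgb8 was apart from the control in the Emx1-Cre library. In ependymal-like cells, 32 of them in the control, Col12a1 stood at 135 [106 to 170], 34.6 [31.3 to 38.1] and 99.8 [91.8 to 108] CPM, an order unlike that in astroglia-like cells.

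Neurons had few members. In projection neuron-like cells (4541, 4415 and 1363) 4 of the 86 entries were measured: Itgb1, Itgb1bp1, Col9a3 and Itgb8. Itgb1 stood at 51.4 [48.9 to 54.0], 50.1 [47.2 to 53.1] and 60.7 [55.9 to 65.9] CPM, the Emx1-Cre interval overlapping the control's and the hGFAP-Cre one apart. Of the 4, none was 1.5-fold higher and Col9a3 was lower in the Emx1-Cre (6.06% of 7919 genes higher, 20.5% lower) and in the hGFAP-Cre library (6.25% and 12.9%). The log2 ratios of Col9a3 were -1.35 and -0.70. The latter was -0.58 once centred on the median gene and -0.45 with 20 CPM added, both short of 1.5-fold, and between -1.04 and -1.14 in 4 other settings: mitochondrial shares under 5%, members among the variable genes, cells called 1 by 1, and with the unnamed clusters. Glial markers in these cells were also highest in the control: those of astroglia summed to 367, 168 and 178 CPM, and those of oligodendrocyte precursors to 116, 79.9 and 77.9 CPM, with 1, 4 and 4 of the 9 at 0. Their part in the Col9a3 levels was not tested. Projection neuron-like clusters also differed between libraries: the one led by Cck held 66, 3086 and 326 cells and the one led by Cntn2 2288, 109 and 304. The class leaves out unnamed clusters with most raised markers of projection neurons. That led by Osbpl6 held 88, 177 and 1859 cells, and that led by Calb2 held 26, 43 and 494. The hGFAP-Cre levels given here therefore come from only a part of the cells with such markers.

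Cajal-Retzius-like neurons were the class in which Col23a1, a membrane-bound collagen, was highest. It stood at 71.8 [60.9 to 84.2] CPM in control, 17.8 [15.2 to 20.8] in Emx1-Cre and 23.7 [18.8 to 29.4] in hGFAP-Cre cells. Col6a2 stood at 34.3 [26.9 to 43.1], 18.3 [15.6 to 21.3] and 15.5 [11.6 to 20.3] CPM. Itgb1 was lowest in the control, at 68.1 [57.5 to 80.1], 87.2 [81.2 to 93.6] and 103 [92.9 to 115] CPM. There were 107, 1408 and 375 such cells.

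In microglia-like cells 12 integrin entries and 1 collagen were measured, and no laminin was. Itgb5, a vitronectin receptor subunit, stood at 436 [412 to 460] CPM in control, 166 [133 to 205] in Emx1-Cre and 223 [200 to 248] in hGFAP-Cre cells. Itgam, the alpha subunit of complement receptor 3, stood at 237 [219 to 255], 66.8 [46.5 to 92.8] and 156 [137 to 177] CPM. Its neighbour Itgax, the alpha subunit of complement receptor 4 known from microglia of developing white matter, stood at 60.8 [52.2 to 70.4], 13.4 [5.37 to 27.5] and 12.1 [7.31 to 19] CPM. All of these were highest in the control, with intervals apart from each mutant. The Emx1-Cre log2 ratio of Itgax was -1.84, but -0.97 with doublets kept, -0.71 with cells called 1 by 1 and -0.74 with the unnamed cluster described further on. The hGFAP-Cre ratio of Itgam, -0.59, was -0.54 and short of 1.5-fold once centred on the median gene.

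For the beta partner of those alpha subunits the intervals overlapped. Itgb2 stood at 62.2 [53.4 to 71.9], 42.0 [26.3 to 63.5] and 53.1 [42.3 to 65.8] CPM, and Itga6 at 140, 113 and 139 CPM, with overlapping intervals. Col27a1, the measured collagen, stood at 36.7 [30.1 to 44.4], 9.54 [3.10 to 22.3] and 6.39 [3.07 to 11.8] CPM. Of 13 measured members 1 was higher and 5 were lower in the Emx1-Cre library (12.2% of 7257 genes higher, 22.9% lower), and 1 and 4 in the hGFAP-Cre library (8.92% and 13.4%). The higher one was Itga4 in the Emx1-Cre library, with overlapping intervals. In hGFAP-Cre cells it was Itgb1bp1, a binding partner of the beta 1 tail, at 59.5 [48.0 to 72.8] against 36.7 [30.1 to 44.4] CPM, a log2 ratio of 0.63. That ratio was 0.56 with mitochondrial shares under 5%, 0.49 with 20 CPM added and 0.5846 with cells called 1 by 1. Each of these is short of 1.5-fold.

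**Figure D5:**
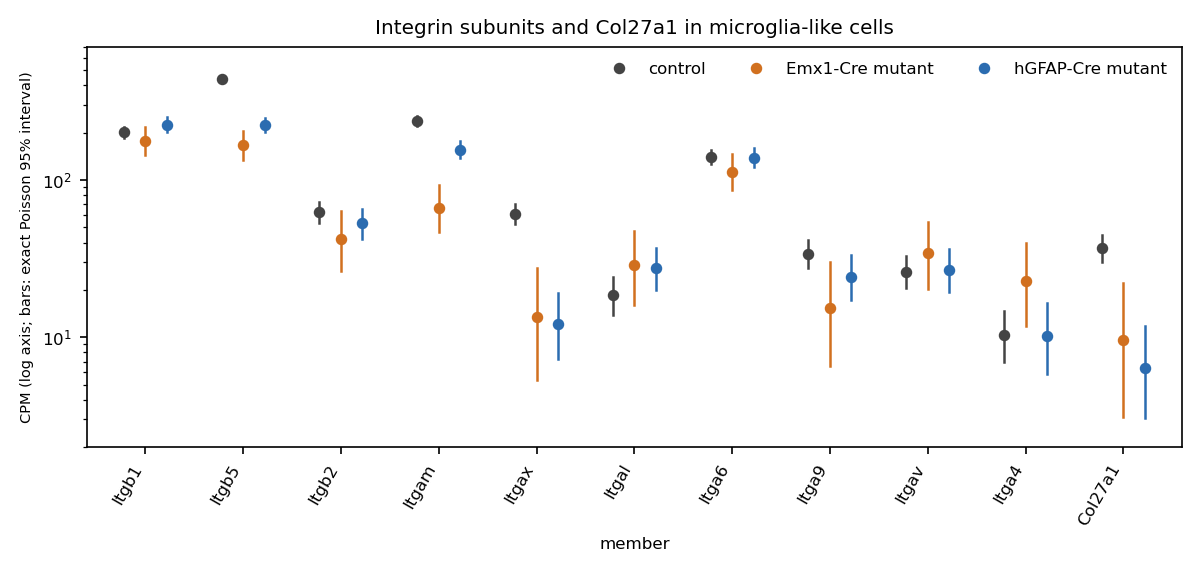
Level (CPM, log axis) of 10 integrin subunits and Col27a1 in microglia-like cells of each library, with exact Poisson 95% intervals. Itgb5, Itgam, Itgax and Col27a1 are highest in the control, and the intervals of Itgb1 and Itga6 overlap among libraries.

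Border macrophage markers differed beside these values: all 7 were seen in each library, with a sum of 212 CPM in control, 1427 in Emx1-Cre and 417 in hGFAP-Cre cells. Microglial markers summed to 23533, 17899 and 22002 CPM. The part of these in the lower integrin levels was not tested. An unnamed cluster led by Rgs1 and Acp5, with most raised markers of microglia, held 0 control, 154 Emx1-Cre and 81 hGFAP-Cre cells. There Itgax stood at 48.9 [34.4 to 67.4] and 34.7 [21.5 to 53.0] CPM, Itgam at 45.0 [31.1 to 62.8] and 69.3 [50 to 93.7] CPM and Itgal, the LFA-1 alpha subunit, at 74.0 [55.9 to 96.1] and 62.7 [44.4 to 86.1] CPM. Itgax was thus higher in this cluster than in the microglia-like class of the same library.

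Genes that build, bind or answer to these members were counted from 5 lists. Of the 8 measured genes among 15 partners of the basement membrane, 2 were at least 1.5-fold higher and 5 lower in Emx1-Cre mural-like cells, and 1 higher and 5 lower in hGFAP-Cre ones. Over all genes of these cells 15.2% were higher and 33.3% lower with Emx1-Cre, and 17.2% and 26.9% with hGFAP-Cre. Vtn, which encodes vitronectin, stood at 5608, 1484 and 2843 CPM, and the heparan sulphate carrier Agrn at 587, 184 and 285 CPM. Vtn is among the lower partners and is also a mural marker that helped to name the class, so it is part of the mural marker sum too. Nid1, which links laminin to type IV collagen, stood at 1069, 541 and 1125 CPM. Of 16 measured genes of collagen synthesis, 2 were higher and 8 lower in the Emx1-Cre, and 0 higher and 9 lower in the hGFAP-Cre library, with Plod1, a lysyl hydroxylase, at 96.4, 15.7 and 53.7 CPM.

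In astroglia-like cells the lists split. Of 7 measured other receptors of collagen and laminin, 2 were higher and 3 lower in the Emx1-Cre, and 4 higher and 1 lower in the hGFAP-Cre library. Over all genes of these cells 6.87% were higher and 26.6% lower with Emx1-Cre, and 11.2% and 13.5% with hGFAP-Cre. Cd44, a hyaluronan receptor, stood at 10.7, 53.1 and 19.2 CPM, and the syndecan Sdc4 at 22.9, 66.6 and 64.8 CPM. Of 13 measured adaptors of integrin adhesion, 0 were higher and 6 lower in the Emx1-Cre library, among them Ilk, the integrin-linked kinase, at 152 in the control and 69.2 CPM. In the hGFAP-Cre library 2 adaptors were higher and 1 lower, with Actn1, an actin cross-linker, at 26.5 in the control and 78.1 CPM. Of 14 measured genes of collagen synthesis 0 were higher and 5 lower in the Emx1-Cre, and 3 higher and 2 lower in the hGFAP-Cre library, where Sparc, a collagen-binding protein, stood at 512, 265 and 889 CPM in control, Emx1-Cre and hGFAP-Cre cells.

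In microglia-like cells no adhesion adaptor was 1.5-fold higher in a mutant. Of 12 measured adhesion adaptors 0 were higher and 9 lower in the Emx1-Cre, and 0 and 4 in the hGFAP-Cre library. Over all genes of these cells 12.2% were higher and 22.9% lower with Emx1-Cre, and 8.92% and 13.4% with hGFAP-Cre. Of 4 measured genes of TGF-beta release, 0 were higher and 2 lower in the Emx1-Cre, and 0 and 1 in the hGFAP-Cre library, with Tgfb1 at 226, 87.7 and 126 CPM. Spp1, which encodes the integrin ligand osteopontin, stood at 2031, 9157 and 865 CPM, highest in the Emx1-Cre cells. In endothelial-like cells the 6 measured basement membrane partners were all within 1.5-fold of the control in each mutant, where 29.8% and 28.0% of all genes were not.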

How the data were processed

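The deposited files hold raw UMI counts per gene and barcode, which the authors obtained from Cell Ranger 5.0.0, per the file headers, on build mm10, per the submitters' processing notes. Cells with at least 1000 genes and under 10% mitochondrial counts were kept, and Scrublet doublets were removed (scanpy 1.11.5, expected rate 10%, 4.53%, 7.61% and 8.16% of barcodes). Clustering used 2000 variable genes without the members, 30 principal components, 15 neighbours and Leiden resolution 1 (leidenalg 0.10.2). A cluster took the class with most markers raised 2-fold and seen in 25% of cells, given at least 3. Unnamed clusters held 1.34%, 3.07% and 20.2% of cells. Counts were summed per class and library as CPM with exact Poisson 95% intervals. Ratios added 5 CPM and were called from 1.5-fold on. The limit for a count of 0 was 3 counts. With 1 library per genotype no test was made. The ratio step was tested on simulated counts.

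Members, lists and markers were chosen with earlier results of these data known. Members were named by level, up to 10 per family, and by ratio with intervals apart, up to 8 per comparison, with partners and neighbours. Members outside this rule in the oligodendrocyte precursor-like, ependymal-like and Cajal-Retzius-like classes, and in the unnamed cluster led by Rgs1, were named after their values were seen.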

Additional observations from a re-analysis of the deposited data

Results flagged for a closer look

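Lama2 in astroglia-like cells was singled out because the 2 mutants lay on opposite sides of the control by 1.5-fold or more, with Poisson intervals apart from it. Its log2 ratio over control was -1.02 in the Emx1-Cre mutant and 0.93 in the hGFAP-Cre mutant. The difference between the mutants was not tested, since each genotype has 1 library. With shared clusters weighted equally the ratios were -0.18 and 0.40.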

How the results depend on the processing

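No paired analysis was possible because each genotype has 1 library. Of 681 ratios of named members recomputed under other settings, 679 kept their sign. The exceptions were Col4a5 in Emx1-Cre mural-like cells, at -0.14 with cells called 1 by 1, and Col22a1 in hGFAP-Cre astroglia-like cells, at -0.041 with shared clusters weighted equally. Of 161 counts recomputed, 137 were within 1.5 times of those reported, and the cause of the others was not tested unless the setting itself adds or removes genes or cells.

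In projection neuron-like cells the hGFAP-Cre count of 1 became 2 with mitochondrial shares under 5%, with cells called 1 by 1, with every member of at least 1 UMI, with shared clusters weighted equally and with the unnamed clusters of projection neuron markers. In place of 4 members these settings measured 6, or 81 with every member of at least 1 UMI. Between 10.1% and 15.8% of genes passed 1.5-fold in them. The main setting had 19.2%. The count became 0 with a pseudocount of 20 CPM or with ratios centred on the median gene. The Emx1-Cre count there became 2 of 6 measured members with shared clusters weighted equally, where 17.2% of genes passed 1.5-fold. In Emx1-Cre mural-like cells 15 of 32 measured members, in place of 23 of 36, differed with cells called 1 by 1. Over all genes 42.3% did. A pseudocount of 20 CPM gave 5 in place of 10 of 22 in Emx1-Cre astroglia-like cells, beside 17.6% of genes. It gave 3 in place of 5 of 13 in hGFAP-Cre microglia-like cells, beside 10.8% of genes. Counting every member of at least 1 UMI gave 14 and 8 of 59 in microglia-like, 22 and 19 of 58 in endothelial-like and 37 and 35 of 59 in mural-like cells of the Emx1-Cre and hGFAP-Cre libraries. Over all genes with at least 1 UMI the shares were 27.9% and 15.9%, 30.8% and 27.9%, and 46.4% and 48.1%.

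With at least 2000 genes per cell no vascular class kept 30 cells in every library, so 0 members were highest there, 24 in glial and 5 in neuronal classes. That setting gave no count for mural-like cells or for Emx1-Cre endothelial-like cells. Members at 25 CPM or more left 7 highest in glial classes. The neuronal count became 2 with cells called 1 by 1, with each cell weighted equally and without fibroblast-called cells. Depth limits the vascular classes most: in control mural-like cells 3 UMIs make 13.1 CPM.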
